A study of Mus musculus with 8 samples.

Results

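The enzymes that burn fatty acids in the mitochondria were compared between the brown adipose tissue (BAT) of wild-type (WT) and db/db mice by bulk mRNA sequencing. The set held 34 genes of the 31053 in the count table, taken by name from the steps of the pathway: the acyl-CoA synthetases, the carnitine shuttle, the acyl-CoA dehydrogenases, the enzymes of the later steps of the spiral, the electron transfer flavoproteins, the acyl-CoA thioesterases and propionyl-CoA carboxylase. Of the 34, 32 had enough counts to be tested. There were 4 libraries per genotype, all from mice of 8 weeks, labelled strain C57BL6/J and genotype WT or DB_DB. The db/db animals, named B6.BKS(D)-Leprdb/J in the study's methods, carried a mutation of the leptin receptor gene in every cell of the body. No change can therefore be assigned to leptin signalling in BAT itself. In the study's resource list they are given by supplier and stock number, without a strain name. A difference of strain background from WT, if there was one, cannot be told apart from genotype. Per the study's methods, all animals were males, were fed normal diet and were fasted before the tissue was taken. The study's sources differ on the supplier of the WT mice, and if it was not that of the db/db mice, supplier and genotype cannot be told apart. The study describes 4 mice per group, and the libraries of a genotype are treated here as separate animals. The labels name the stromal vascular fraction as the cell type, yet the adipocyte genes Ucp1 (1892 to 2754 CPM in WT and 1056 to 2027 CPM in db/db) and Cidea (3975 to 4787 CPM in WT and 1254 to 2380.4 CPM in db/db) were abundant in all 8 libraries. Levels are given in CPM, read counts relative to each library's effective size after TMM scaling.

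Brown fat makes heat by oxidising fatty acids. A fatty acid is first joined to coenzyme A, passed through the mitochondrial membranes as its carnitine ester, and then shortened by a repeated cycle of dehydrogenation, hydration, a further dehydrogenation and thiolysis. The electrons of the first dehydrogenation leave through the electron transfer flavoprotein for the respiratory chain, and the proton gradient that follows is spent as heat by the uncoupling protein UCP1. In bulk tissue, fewer cells of a type and less RNA per cell cannot be told apart.

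The WT libraries held 2374079 to 2615009 counts and the db/db libraries 2382722 to 3240074, and 3 counts, taken as the limit of detection, corresponded to 0.902 to 1.33 CPM. Markers of other cell types differed with genotype. Of 26 skeletal muscle markers, 24 were higher in db/db and 2 did not pass, with summed levels of 549 to 2069 CPM in WT and 2704 to 13846 CPM in db/db, highest in db/db replicate 1. Of 12 macrophage markers, 11 were higher (162 to 212 CPM in WT and 757 to 1348 CPM in db/db, summed), as were 7 of 8 stromal markers (490.4 to 608 CPM in WT and 943 to 1969.8 CPM in db/db) and 5 of 6 white adipocyte markers (107 to 325 CPM in WT and 1913 to 2938 CPM in db/db). In the other direction, 6 of 7 tested brown adipocyte markers were lower, while of 8 genes common to all adipocytes 1 was lower and 2 were higher. Of 6 endothelial markers, 2 were lower, Kdr and Emcn, with summed levels of 357 to 425 CPM in WT and 252 to 301 CPM in db/db. Both the muscle and the macrophage list had a marker at 0 counts in some WT library, Tnni1 and Trem2. The part of these cell types in the differences of the pathway was not tested. Fits with the muscle markers as a covariate and with scaling by the markers common to all adipocytes are given with the counts of members.

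In db/db BAT, 14 members of the pathway were lower and 2 were higher. The lower genes included the trifunctional protein subunits Hadha and Hadhb, the long-chain dehydrogenases Acadvl and Acadl, the hydratase Echs1 and the ETF subunit Etfb, while Cpt1a and Acot2 were the higher genes. Of the 32 members tested, 16 (50%) passed the test, edgeR's quasi-likelihood test with a Benjamini-Hochberg adjusted p under 0.05, against 27.7% of all 9264 genes tested. The balance between directions was uneven. In the lower direction, 14 members (43.8%) passed, against 11.9% of all genes, and in the higher direction 2 (6.25%), against 15.8% of all genes. Among the 16 that did not pass, 12 had a negative and 4 a positive log2 fold change. The median log2 fold change over the 32 members was −0.32, beside 0.0066 over all genes tested, and 26 of 32 were negative, beside 49.6% of all genes. All 4 db/db libraries lay under all 4 WT libraries in 12 members (12.7% of all genes) and over them in 2 (15.3% of all genes). Summed over the tested and untested members, the level was 19029 ± 1449 CPM in WT and 14426 ± 2165 CPM in db/db (SD, n = 4), and the highest db/db library, at 15923, lay under the lowest WT library, at 16916.

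**Figure D1:**
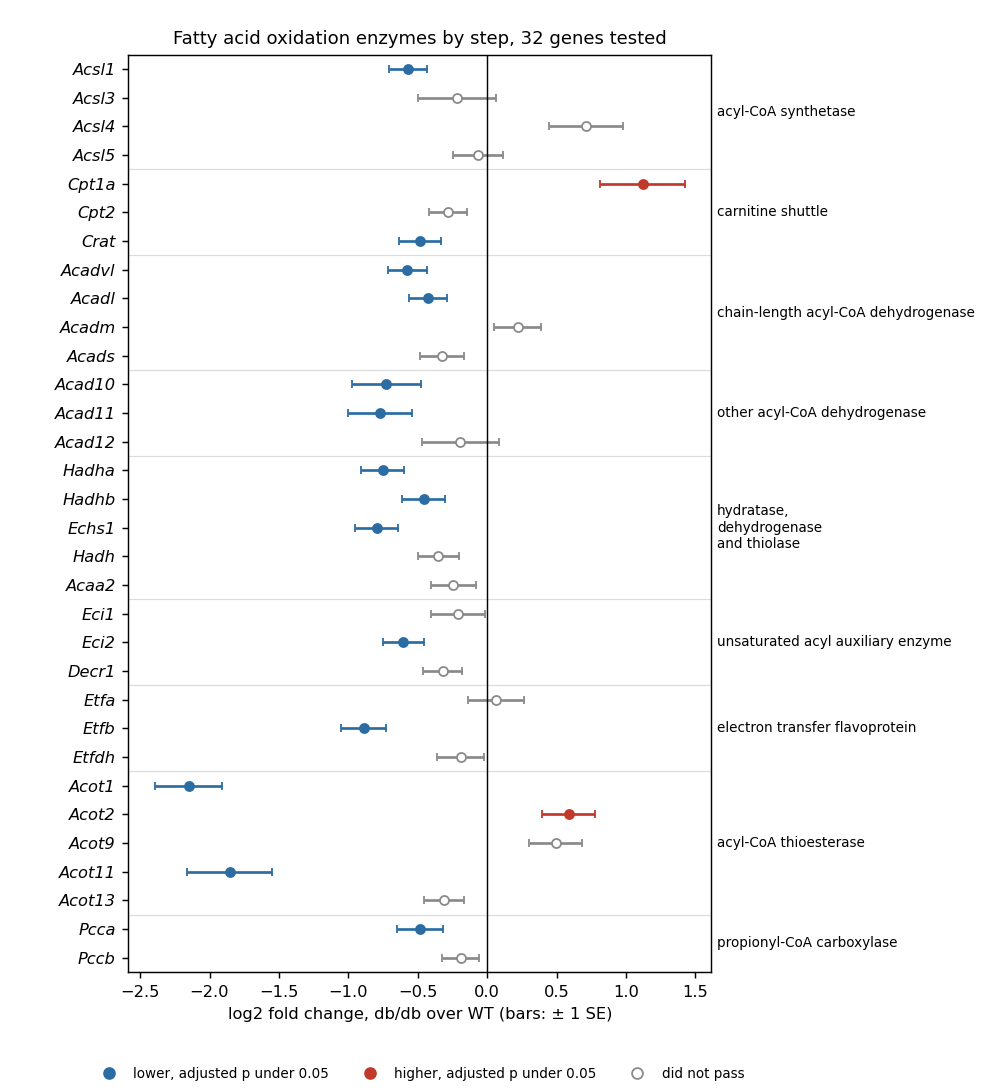
Log2 fold change of db/db over WT (horizontal axis) for the 32 members tested, grouped by step of the pathway, with bars of 1 SE. Filled blue points are the 14 members lower and filled red points the 2 members higher in db/db at an edgeR adjusted p under 0.05. Open points did not pass. Most points lie left of 0, with Acot1 and Acot11 farthest left and Cpt1a farthest right.

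The median coefficient of variation over the 32 members was 19.5% among the db/db libraries and 12.7% among the WT libraries. Replicate 1 of db/db, the library with the most muscle RNA, was the lowest of the 4 db/db libraries in 22 of 32 members. How often this library was the lowest over all genes tested was not counted. Without it, 13 members passed, 10 lower and 3 higher, when 24% of all genes did. Leaving out WT replicate 4 had the largest effect on the count of any single library, with 10 members passing, 8 of them lower, when 23.1% of all genes passed. With the mean log2 level of the muscle markers as a covariate, 2 members passed, Acot1 and Acot11, both lower, while the share of all genes that passed was 7.03%. The summed levels of these markers did not overlap between genotypes, at 549 to 2069 CPM in WT and 2704 to 13846 CPM in db/db. Muscle level and genotype therefore cannot be fully told apart in this fit. The median log2 fold change of the members in that fit was −0.27, and 22 of 32 were negative. The log2 fold change of Acsl1 was −0.69 there, against −0.57 without the covariate, that of Cpt1a 1.17 against 1.12, that of Etfb −0.56 against −0.89, and that of Acad10 −0.26 against −0.73. With the covariate, 5 of 32 members had an unadjusted edgeR p under 0.05 in the lower direction (8.01% of all genes) and 1 in the higher (11.4% of all genes). When libraries were scaled by the markers common to all adipocytes, a setting chosen after seeing the data, 15 members passed, 14 lower and 1 higher. In that setting 26% of all genes passed.

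Promoter sequence was available for 28 of the 34 members in RefSeq (GRCm38.p6), and the 250 bases before the start were searched on both strands for sites of the factors known to drive oxidative genes. The core AGGTCA, recognised by many nuclear receptors, was found in 16.1% of the 31 promoters of these members (some genes have more than 1) against 14.02% of all 32851 promoters, in the genes Cpt1a, Acadvl, Acadm, Echs1 and Pcca. The NRF1 site, GCGCA followed by its reverse complement, was found in 6.45% against 0.782%, in Acad12 and Etfdh. No member promoter held the estrogen-related receptor element TCAAGGTCA (0.387% of all promoters), the core repeated in the same direction after 1 base (0.0335%), that repeat with AGGNCA as its unit (0.338%), or the cAMP response element TGACGTCA (1.55%). These motifs overlap, since the receptor element and the exact repeat contain the core. The promoters of the genes for the CPT1 of liver type and for very-long-chain acyl-CoA dehydrogenase are shown. They were chosen because both carry the core and the transcripts of the genes moved in opposite directions. The core, or its reverse complement TGACCT, is in capitals.
Cpt1a, chr19:3323051-3323300, plus strand: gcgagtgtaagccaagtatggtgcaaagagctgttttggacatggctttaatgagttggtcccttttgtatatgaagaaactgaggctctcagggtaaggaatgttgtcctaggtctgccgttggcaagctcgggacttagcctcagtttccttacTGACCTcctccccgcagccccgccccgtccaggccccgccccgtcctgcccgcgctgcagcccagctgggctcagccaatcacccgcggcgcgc
Acadvl, chr11:70015429-70015678, minus strand: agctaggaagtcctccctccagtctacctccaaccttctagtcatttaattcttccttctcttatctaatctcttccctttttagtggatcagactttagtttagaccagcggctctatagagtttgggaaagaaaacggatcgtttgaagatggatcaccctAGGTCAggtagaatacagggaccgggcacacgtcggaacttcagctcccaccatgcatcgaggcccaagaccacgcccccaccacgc
A match is a description of these letters and not of binding, and a longer annotated transcript of Cpt1a starts before the window shown.

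At the entry of the pathway, long-chain acyl-CoA synthetases join fatty acids to coenzyme A, and 1 of 4 was lower in db/db. Acsl1 (ENSMUSG00000018796, chr8:46471037-46536051, plus strand), the main synthetase of fat and muscle, was at 975, 804, 1027 and 1119.7 CPM in WT replicates 1 to 4 and at 663, 646, 721 and 613 CPM in db/db replicates 1 to 4, the order used for all values that follow. Every db/db library was below every WT library, and the log2 fold change was −0.57 ± 0.13 (SE, edgeR adjusted p 0.0038). Acsl5 was at 31.97, 37.98, 37.6 and 29.7 CPM in WT and at 35.5, 36.6, 23.9 and 34.6 CPM in db/db, overlapping, with a log2 fold change of −0.06 ± 0.18 (SE, edgeR adjusted p 0.83). Acsl3, a synthetase of lipid droplets and the endoplasmic reticulum, was at 11.5 to 20.3 CPM in WT and 7.81 to 19.9 CPM in db/db (log2 difference −0.22 ± 0.28 SE by edgeR, with an adjusted p of 0.61). Acsl4, which prefers arachidonic acid, had a positive log2 fold change of 0.71 ± 0.27 (SE, edgeR adjusted p 0.0554), with 9.34 to 15.8 CPM in WT and 13.4 to 26.1 CPM in db/db. Acsl4 passed without WT replicate 3 (0.0367), db/db replicate 1 (0.0403) or db/db replicate 4 (0.0279), where the numbers are edgeR adjusted p. Exons of Acsl1, Acsl3 and Acsl5 overlap those of Gm45244, Utp14b and Zdhhc6, so their counts are uncertain, since whether strand was used in counting is not given in the sources used here.

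**Figure D2:**
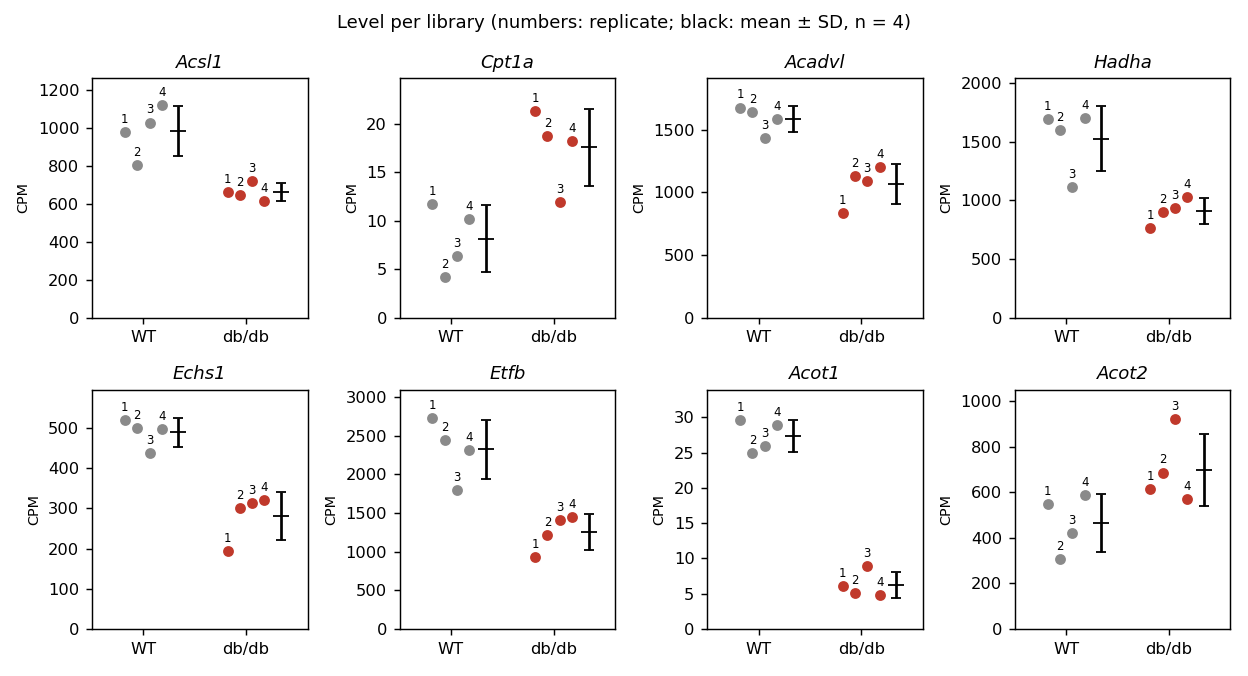
Level in CPM (vertical axes, from 0) of 8 members in each library, with WT in grey and db/db in red. Numbers give the replicate, and black bars the mean ± SD (n = 4). Acsl1, Acadvl, Hadha, Echs1, Etfb and Acot1 show no overlap and lower db/db values. Cpt1a shows no overlap and higher db/db values, and Acot2 overlaps.

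The carnitine shuttle, which carries long-chain acyl groups into the mitochondrion, moved in both directions. Cpt1a (ENSMUSG00000024900, chr19:3322334-3385733, plus strand), the liver-type carnitine palmitoyltransferase 1 whose inhibition by malonyl-CoA sets the rate of entry, was at 11.7, 4.22, 6.39 and 10.2 CPM in WT and at 21.4, 18.8, 11.97 and 18.2 CPM in db/db. The lowest db/db library, replicate 3, was above the highest WT library by a small margin. The log2 fold change was 1.12 ± 0.30 (SE, edgeR adjusted p 0.0104), from 10 to 29 counts per library in WT and 27 to 71 in db/db. Crat (ENSMUSG00000026853, chr2:30400471-30415813, minus strand), the carnitine acetyltransferase that buffers acetyl-CoA, was at 216, 148, 187 and 208 CPM in WT and at 109, 145, 157 and 132 CPM in db/db. Only WT replicate 2 lay within the db/db range, and the log2 fold change was −0.48 ± 0.15 (SE, edgeR adjusted p 0.0241). Crat did not pass without WT replicate 1 (0.0646), WT replicate 4 (0.0704) or db/db replicate 1 (0.0612) (edgeR adjusted p in brackets). Its exons overlap those of Dolpp1 on the other strand. Cpt2, which returns the acyl group to coenzyme A on the matrix side, was at 189 to 249.6 CPM in WT and 148 to 205 CPM in db/db (log2 difference −0.28 ± 0.14 SE by edgeR, with an adjusted p of 0.145).

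Cpt1b, the muscle-type CPT1 that brown fat is known to use, could not be measured from these counts. It held 0 counts in 7 libraries and 1 count in a WT library. In the annotation, 2597 of the 2821 windows of 75 bases along its transcript (92.1%), including all 500 nearest its 3′ end, also lie in the overlapping gene Gm44502, which held 0 counts in all libraries. Whether reads that fell on both genes were dropped in counting was not tested, and no level is given for Cpt1b.

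The acyl-CoA dehydrogenases catalyse the first dehydrogenation, each over a range of chain lengths, and the long-chain enzymes were lower. Acadvl (ENSMUSG00000018574, chr11:70010183-70015411, minus strand), the very-long-chain enzyme of the inner membrane, was at 1676, 1641, 1433 and 1587 CPM in WT and at 834, 1128, 1092 and 1200.4 CPM in db/db, without overlap. Its log2 fold change was −0.58 ± 0.14 (SE, edgeR adjusted p 0.00482). Acadl (ENSMUSG00000026003, chr1:66830839-66863277, minus strand), the long-chain enzyme of the matrix, was at 1809, 1738, 1599 and 1894 CPM in WT and at 1034, 1422, 1456 and 1328 CPM in db/db. Every db/db library was again below every WT library, with a log2 fold change of −0.43 ± 0.14 (SE, edgeR adjusted p 0.0292). Acadl did not pass without WT replicate 1 (0.0554), WT replicate 2 (0.0551) or WT replicate 4 (0.0871) (edgeR adjusted p in brackets). Exons of Acadvl overlap those of Dvl2 on the other strand. The medium- and short-chain enzymes did not pass. Acadm was at 541 to 579 CPM in WT and 429.9 to 880.3 CPM in db/db (log2 difference 0.22 ± 0.17 SE by edgeR, with an adjusted p of 0.363). Acads was at 386 to 588 CPM in WT and 326 to 501 CPM in db/db (log2 difference −0.32 ± 0.16 SE by edgeR, with an adjusted p of 0.145), and among fits that left out 1 library passed when WT replicate 3 was left out (edgeR adjusted p 0.0372).

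Among the less studied relatives of these dehydrogenases, 2 of the 3 tested were lower. Acad10 (ENSMUSG00000029456, chr5:121621026-121660514, minus strand) was at 23.1, 24.5, 28.9 and 22.5 CPM in WT and at 7.82, 17.2, 19.5 and 15.996 CPM in db/db. The groups did not overlap, and the log2 fold change was −0.73 ± 0.25 (SE, edgeR adjusted p 0.0371). Acad11 (ENSMUSG00000090150, chr9:104063377-104127725, plus strand) was at 71.2, 59.9, 86.05 and 85.3 CPM in WT and at 23.5, 57.3, 59.8 and 37.6 CPM in db/db, without overlap. Its log2 fold change was −0.77 ± 0.23 (SE, edgeR adjusted p 0.0184). Acad10 did not pass without WT replicate 2 (0.0647), WT replicate 3 (0.0906), WT replicate 4 (0.0507), db/db replicate 1 (0.0924) or db/db replicate 4 (0.053), and Acad11 without WT replicate 4 (0.0531) (edgeR adjusted p in brackets). Acad12 was at 9.77 to 20.6 CPM in WT and 9.67 to 16.2 CPM in db/db (log2 difference −0.19 ± 0.28 SE by edgeR, with an adjusted p of 0.65). Acad10 and Acad12, neighbours on chromosome 5, share 548 of their 75-base windows, and exons of Acad11 overlap Gm28305 and Ackr4, so that their counts are uncertain. Acad9, better known as an assembly factor of respiratory complex I, had 5 to 16 counts in WT and 9 to 15 in db/db (2.12 to 6.47 CPM in WT and 2.86 to 6.65 CPM in db/db) and was not tested.

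The later steps of the spiral gave 3 lower genes of 5. Hadha (ENSMUSG00000025745, chr5:30118304-30155162, minus strand) and Hadhb (ENSMUSG00000059447, chr5:30155248-30184593, plus strand) encode the α and β subunits of the mitochondrial trifunctional protein, which hydrates, dehydrogenates and cleaves long acyl chains, and lie head to head. Hadha was at 1691, 1595, 1116 and 1698 CPM in WT and at 760.2, 897, 938 and 1027 CPM in db/db, without overlap. The log2 fold change of Hadha was −0.75 ± 0.15 (SE, edgeR adjusted p 0.00131). Hadhb was at 563, 744, 745 and 747 CPM in WT and at 373, 587, 587 and 492 CPM in db/db. WT replicate 1 lay within the db/db range, and the log2 fold change was −0.46 ± 0.16 (SE, edgeR adjusted p 0.0374). Hadhb did not pass without WT replicate 2 (0.0872), WT replicate 3 (0.0721), WT replicate 4 (0.0923), db/db replicate 1 (0.0744) or db/db replicate 4 (0.0727) (edgeR adjusted p in brackets), nor when every library had to hold 10 counts (edgeR adjusted p 0.056), and 1129 of 1974 windows of 75 bases along its transcript (57.2%), none of them among the last 500, recur in other genes, mostly the pseudogene Gm13910.

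Echs1 (ENSMUSG00000025465, chr7:140105710-140116476, minus strand), the short-chain enoyl-CoA hydratase, was at 519.6, 501, 438 and 498 CPM in WT and at 193, 300.3, 313 and 321 CPM in db/db. Every db/db library was below every WT library, replicate 1 far below the rest. Its log2 fold change was −0.80 ± 0.15 (SE, edgeR adjusted p 0.000819), and its exons overlap those of Paox on the other strand. Hadh, the short-chain 3-hydroxyacyl-CoA dehydrogenase, was at 1558 to 1944 CPM in WT and 1028 to 1609.9 CPM in db/db (log2 difference −0.35 ± 0.15 SE by edgeR, with an adjusted p of 0.0938), and passed when libraries were scaled by their totals (edgeR adjusted p 0.0332). Acaa2, the thiolase that ends the cycle, was at 2495 to 3582 CPM in WT and 1971 to 3131 CPM in db/db (log2 difference −0.24 ± 0.16 SE by edgeR, with an adjusted p of 0.288).

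Unsaturated fatty acids need auxiliary enzymes that move or remove a double bond, and 1 of 3 was lower. Eci2 (ENSMUSG00000021417, chr13:34977748-35027096, minus strand), an enoyl-CoA isomerase, was at 138, 152, 123 and 153 CPM in WT and at 72.5, 107, 87.3 and 105 CPM in db/db, without overlap, and its log2 fold change was −0.60 ± 0.15 (SE, edgeR adjusted p 0.00523). Eci1, the other isomerase, was at 299, 327, 378 and 352 CPM in WT and at 182, 425, 311 and 255 CPM in db/db. The Eci1 groups overlapped widely, with a log2 fold change of −0.21 ± 0.19 (SE, edgeR adjusted p 0.463). Decr1, the 2,4-dienoyl-CoA reductase, was at 688 to 823 CPM in WT and 512 to 746 CPM in db/db (log2 difference −0.32 ± 0.14 SE by edgeR, with an adjusted p of 0.0947), and among fits that left out 1 library passed without db/db replicate 3 (0.0259), where the bracket holds the edgeR adjusted p, and also under scaling by library totals (0.0449). Exons of Eci2 overlap those of Gm16984.

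The electron transfer flavoprotein (ETF) takes electrons from all acyl-CoA dehydrogenases and is built of an α and a β subunit, encoded by Etfa and Etfb. Etfb (ENSMUSG00000004610, chr7:43444083-43457800, plus strand) was at 2721, 2442, 1801 and 2319 CPM in WT and at 929.6, 1219, 1411 and 1450.0 CPM in db/db. The highest db/db library lay under the lowest WT library, and the log2 fold change was −0.89 ± 0.17 (SE, edgeR adjusted p 0.000568). Etfa (ENSMUSG00000032314, chr9:55454508-55512243, minus strand) was at 151, 217, 215 and 187 CPM in WT and at 117, 282, 214 and 193 CPM in db/db. The Etfa groups overlapped, with a log2 fold change of 0.07 ± 0.20 (SE, edgeR adjusted p 0.847). Etfdh, the dehydrogenase that passes the electrons on to ubiquinone, was at 109.7 to 141 CPM in WT and 75.2 to 138 CPM in db/db (log2 difference −0.19 ± 0.17 SE by edgeR, with an adjusted p of 0.443). Exons of Etfb overlap those of Gm45233 on the same strand, with 543 of 819 windows shared (66.3%). Of these, 269 lie among the last 500 at the 3′ end, so the counts of Etfb are uncertain.

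Acyl-CoA thioesterases release the free fatty acid from coenzyme A, and this family held both of the largest decreases and 1 of the 2 increases. Acot1, of the cytosol, and Acot2, of the mitochondrial matrix, are neighbouring copies on chromosome 12. Over 1236 aligned coding bases 1178 (95.3%) were identical, and the coding sequence of Acot2 began with 123 further bases, the part that encodes its mitochondrial targeting sequence. The start of both coding sequences (GENCODE M21, GRCm38) is shown because the genes moved in opposite directions and differ at this end, with the bases before the alignment in capitals.
Acot2, first 183 coding bases: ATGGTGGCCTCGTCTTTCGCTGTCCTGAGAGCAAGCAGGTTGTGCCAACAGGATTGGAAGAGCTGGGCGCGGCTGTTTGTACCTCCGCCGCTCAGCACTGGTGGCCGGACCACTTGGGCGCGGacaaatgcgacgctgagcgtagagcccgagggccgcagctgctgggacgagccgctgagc
Acot1, first 60 coding bases: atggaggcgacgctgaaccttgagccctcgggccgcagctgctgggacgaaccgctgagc
Acot1 (ENSMUSG00000072949, chr12:84009490-84018371, plus strand) was at 29.5, 24.9, 25.9 and 28.9 CPM in WT and at 6.02, 5.09, 8.87 and 4.84 CPM in db/db. All 4 db/db libraries lay far under the WT libraries, and replicate 3 was the highest of them. The log2 fold change was −2.15 ± 0.24 (SE, edgeR adjusted p 4.57e-06), from 59 to 73 counts per library in WT and 13 to 20 in db/db.

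Acot2 (ENSMUSG00000021226, chr12:83987861-83993873, plus strand) was at 550.4, 306, 419 and 586 CPM in WT and at 616, 687, 924 and 569.9 CPM in db/db. Only WT replicate 4 lay above the lowest db/db library. The log2 fold change was 0.59 ± 0.19 (SE, edgeR adjusted p 0.0296). Acot2 did not pass without WT replicate 2 (0.113), WT replicate 3 (0.0901), db/db replicate 2 (0.0526) or db/db replicate 3 (0.127) (edgeR adjusted p in brackets), nor when libraries were scaled by adipocyte markers (edgeR adjusted p 0.0683). Of the 75-base windows along the transcripts, 581 of 2198 of Acot1 (26.4%) and 450 of 2122 of Acot2 (21.2%) recur in other thioesterase genes, none of them among the last 500 at the 3′ end, so that part of their counts may be shared.

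Acot11 (ENSMUSG00000034853, chr4:106744555-106804998, minus strand), a thioesterase induced by cold in brown fat, was at 31.97, 29.96, 15.03 and 36.1 CPM in WT and at 7.52, 8.59, 11.1 and 4.09 CPM in db/db. No db/db library reached the WT range, and the log2 fold change was −1.85 ± 0.31 (SE, edgeR adjusted p 0.000199), from 40 to 85 counts per library in WT and 11 to 27 in db/db. Acot11 shares exonic bases with Fam151a on the other strand. Acot9, a mitochondrial thioesterase, was at 16.1 to 25.6 CPM in WT and 28.4 to 34.6 CPM in db/db, without overlap (log2 difference 0.49 ± 0.19 SE by edgeR, with an adjusted p of 0.0614). Acot13, which works on medium and long chains, was at 544 to 641 CPM in WT and 346 to 535 CPM in db/db, also without overlap (log2 difference −0.31 ± 0.14 SE by edgeR, with an adjusted p of 0.119), and passed under scaling by library totals (edgeR adjusted p 0.0495).

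Propionyl-CoA carboxylase takes up the propionyl-CoA left by odd-chain fatty acids and by branched amino acids. Pcca (ENSMUSG00000041650, chr14:122534324-122891100, plus strand), the biotin-bearing α subunit, was at 85.4, 114, 101 and 104 CPM in WT and at 51.1, 77.6, 88.7 and 72.9 CPM in db/db. The groups overlapped, WT replicate 1 lying under db/db replicate 3, and the log2 fold change was −0.48 ± 0.16 (SE, edgeR adjusted p 0.0358). Pcca did not pass without WT replicate 2 (0.0986), WT replicate 3 (0.0525), WT replicate 4 (0.0755), db/db replicate 1 (0.0972) or db/db replicate 4 (0.0598) (edgeR adjusted p in brackets), nor when every library had to hold 10 counts (edgeR adjusted p 0.0518), and its exons overlap those of Ggact on the other strand. Pccb, the β subunit, was at 350.5, 390.0, 378 and 389 CPM in WT and at 259.9, 369.7, 351 and 343 CPM in db/db, overlapping (log2 difference −0.19 ± 0.13 SE by edgeR, with an adjusted p of 0.319).

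Ratios of paired genes were taken within each library as log2 of CPM + 0.5, where the added 0.5 leaves a small dependence on scaling for low genes such as Acot1, and 7 were tested by exact two-sided permutation of the 8 libraries, for which the smallest possible p is 0.0286. The log2 ratio of Etfa over Etfb was −4.17, −3.49, −3.06 and −3.63 in WT and −2.98, −2.11, −2.72 and −2.90 in db/db. Every db/db library was above every WT library, with a mean difference of 0.91 (exact permutation p 0.0286, 0.10 adjusted over the 7 ratios). The log2 ratio of Acot2 over Acot1 was 4.20, 3.59, 3.99 and 4.32 in WT and 6.56, 6.94, 6.63 and 6.74 in db/db, again without overlap. That difference was 2.69 (exact permutation p 0.0286, adjusted 0.10), so neither ratio passed after adjustment. The other subunit pairs gave smaller differences. Hadha over Hadhb differed by −0.27 (exact permutation p 0.257), and Pcca over Pccb by −0.30 (exact permutation p 0.0571). Of the isozyme pairs, Acsl1 over Acsl5 differed by −0.48, with an exact permutation p of 0.0857, Acadl over Acadvl by 0.15, with a p of 0.0857, and Eci1 over Eci2 by 0.34, with a p of 0.171. These 5 had adjusted p from 0.12 to 0.257.

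**Figure D3:**
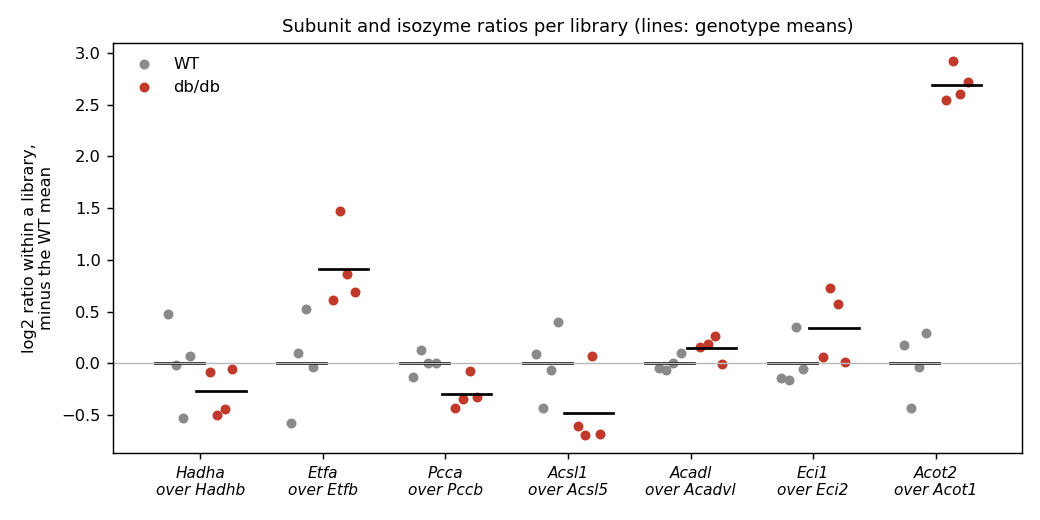
Log2 ratio of CPM of paired members within each library, minus the mean of the 4 WT libraries (vertical axis), with WT in grey, db/db in red and black lines at the genotype means. Etfa over Etfb and Acot2 over Acot1 are the pairs in which all 4 db/db libraries lie above all WT libraries, with mean differences of 0.91 and 2.69.

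The genes around the pathway, 59 in a list of suppliers, regulators and branches, were tested in the same fit. Of 51 tested, 21 (41.2%) were lower, against 11.9% of all genes, with a median log2 fold change of −0.39. In the values that follow, the brackets hold the log2 fold change ± SE and the edgeR adjusted p. Both tested genes of carnitine supply were lower, the plasma membrane carnitine transporter Slc22a5 (−1.30 ± 0.33, 0.00712) and the carnitine-acylcarnitine exchanger Slc25a20 (−0.74 ± 0.16, 0.00169). Of 3 genes that make or remove malonyl-CoA, the inhibitor of CPT1, 2 were lower, Acacb (−1.29 ± 0.16, 1.03e-05), the acetyl-CoA carboxylase at the mitochondrion, and Mlycd (−0.58 ± 0.15, 0.00616), the decarboxylase. The third was Acaca (−0.15 ± 0.22, 0.646), the carboxylase of the cytosol, which did not pass.

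Among other synthetases and transport proteins, 5 of 11 were lower. They were the medium-chain synthetase Acsm3 (−2.44 ± 0.35, 5.84e-05), the mitochondrial acetyl- and propionyl-CoA synthetases Acss1 (−1.60 ± 0.15, 8.01e-07) and Acss3 (−0.64 ± 0.21, 0.0312), and the fatty acid transport proteins Slc27a1 (−0.94 ± 0.24, 0.00616) and Slc27a2 (−2.13 ± 0.31, 6.91e-05). Of 5 other thioesterases tested, Acot4 (−2.59 ± 0.43, 0.000199) and Acot7 (−1.10 ± 0.19, 0.000362) were lower. Acot4 lies in the same cluster of copies as Acot1, and with 6.75 to 14.7 CPM in WT and 0.902 to 2.23 CPM in db/db it is counted close to the limit of detection in db/db. In branched-chain and propionate breakdown, Acadsb (−0.60 ± 0.14, 0.00333), Ivd (−0.55 ± 0.14, 0.00755) and Mcee (−0.45 ± 0.13, 0.0181) were lower of 10 tested.

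Flavin supply and the partners of ETF and of ACAD9 gave 2 lower genes of 8, Etfrf1 (−0.42 ± 0.14, 0.0323), a regulator of ETF, and Slc25a32 (−1.66 ± 0.17, 2.09e-06), the mitochondrial carrier of folate and flavin. Of 9 transcription regulators known to drive fatty acid oxidation, 5 were lower. They were the receptor Ppara (−1.46 ± 0.31, 0.00165), the coactivators Ppargc1a (−0.79 ± 0.23, 0.0158) and Ppargc1b (−1.19 ± 0.22, 0.000491), the receptor Esrra (−0.80 ± 0.19, 0.00491) and the coregulator Lpin1 (−0.86 ± 0.18, 0.00192). Exons of Acsm3, Acss1, Acss3, Slc27a2, Acot4, Etfrf1 and Esrra overlap other genes, so their counts are uncertain. Among fits that left out 1 library, Acss3 did not pass without WT replicate 3 (0.0862) or db/db replicate 1 (0.0852), 3 (0.064) or 4 (0.0862), where brackets hold the edgeR adjusted p. Etfrf1 did not pass without WT replicate 1 (0.054), 2 (0.0617) or 4 (0.0659) or db/db replicate 1 (0.0904) or 3 (0.0875), and Mcee (0.0545) and Ppargc1a (0.0732) did not without WT replicate 4, by edgeR adjusted p. With the muscle markers as a covariate, 6 of the 51 passed, when 7.03% of all genes did.

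**Figure D4:**
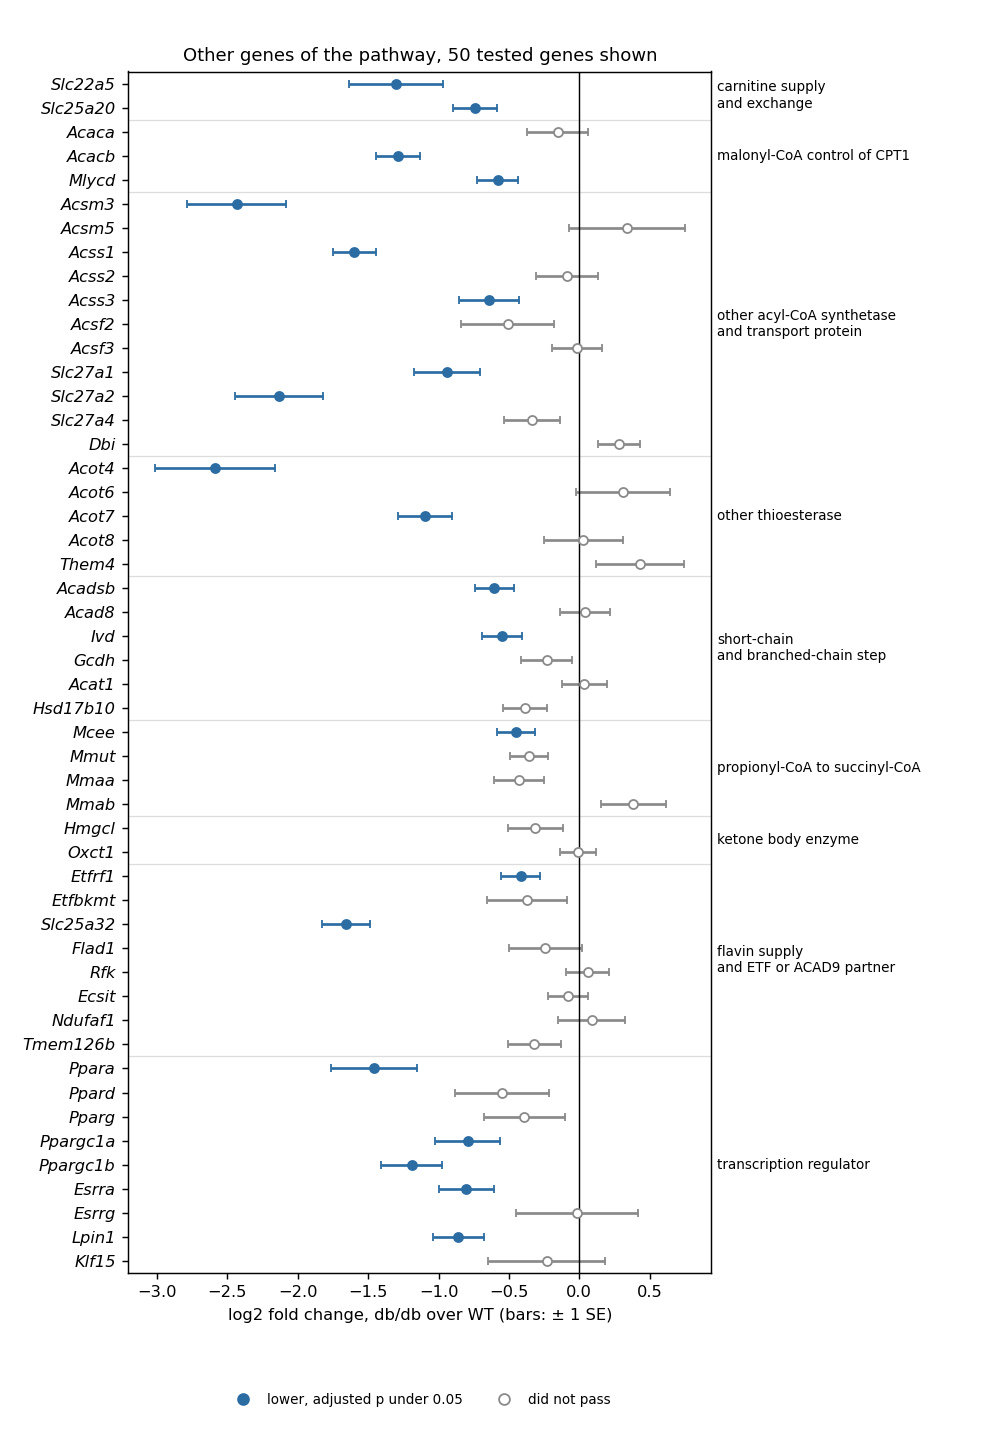
Log2 fold change of db/db over WT (horizontal axis) of 50 tested genes around the pathway, grouped by role, with bars of 1 SE. The 21 genes in filled blue were lower in db/db at an edgeR adjusted p under 0.05. Open points did not pass.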

How the data were processed

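RNA of brown adipose tissue from 4 WT and 4 db/db mice was sequenced single-end through a commercial service. Per the study's methods, the authors used bbduk for trimming, STAR for alignment to mm10 and HTSeq-count for counting by gene. The submitters' processing notes name Trimmomatic, HISAT2 and DESeq2. The study's resource list also holds Trimmomatic and HISAT2, and its methods also name DESeq2. Which of the tools made the deposited counts is not given in the sources used here. Nor is the use of strand or of molecular identifiers, so that copies from PCR may be counted. The deposited raw counts were used. A deposited table of normalized values was not used. Of 31053 genes, 31011 were matched by identifier to GENCODE M21 (GRCm38), leaving 42 that took up to 0.00213% of a library's counts. Groups were taken from the sample labels.

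Genes passing filterByExpr (minimum count 10, minimum total 15) were tested with edgeR 4.0.16 (R 4.3.3): TMM scaling, the quasi-likelihood F test of db/db against WT, and Benjamini-Hochberg adjustment over the 9264 genes tested, at a threshold of 0.05. SE values were derived from the F statistic. Total counts were 2374079 to 3240074 per library. Ratios were taken as log2(CPM + 0.5) and tested by exact two-sided permutation (scipy 1.17.1). A planned ratio of Cpt1b over Cpt1a was left out because Cpt1b was not measurable. Per-library values were named by rule for all members that passed and for members of a ratio pair. The other genes of the pathway were named where they passed, except for 1 gene that is not reported here. The member list, the other gene lists and the markers were chosen with earlier results of these data known. Alternatives were DESeq2 1.42.0, limma-voom (limma 3.58.1), other scalings and filters, a muscle covariate, a replicate block and leaving out each library. The test was checked on simulated counts. In the edgeR fit, counting error was modelled together with the spread between libraries. The permutation test of the ratios holds no model of counting error, and the limit of 3 counts covers counting error alone.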

Additional observations from a re-analysis of the deposited data

Results flagged for a closer look

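In 7 of 80 sets of 4 libraries examined, over the members and the ratios of paired members, 1 library was separated from the other 3 by a gap above Dixon's 95% critical value, where about 4 sets are expected by chance. Replicate 1 of db/db had an Echs1 level of 193 CPM, with the other db/db libraries at 300.3 to 321 CPM, and an Acot13 level of 346 CPM, with the others at 508 to 535 CPM. In both genes the db/db libraries stayed below WT with or without it. Replicate 1 of WT had a Hadhb level of 563 CPM, with the others at 744 to 747 CPM. Replicate 3 of db/db had an Acsl5 level of 23.9 CPM, with the others at 34.6 to 36.6 CPM, and an Acsl1 over Acsl5 log2 ratio of 4.88, with the others at 4.12 to 4.205. Acad9, at a few counts per library and not tested, stood at 6.47 CPM in WT replicate 1, with the others at 2.12 to 2.53 CPM, and at 6.65 CPM in db/db replicate 3, with the others at 2.86 to 3.35 CPM.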

How the results depend on the processing

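Across 19 alternative settings, Acot1 and Acot11 passed in every one, and Acsl1, Cpt1a, Acadvl, Hadha, Echs1, Eci2 and Etfb passed in all but the fit with a muscle covariate. That fit gave the largest changes: 2 members passed, 2 lower and 0 higher, as did 6 other genes of the pathway, when 7.03% of all genes passed against 27.7% without the covariate, and the fold changes of Eci1 (0.0624), Acsl5 (0.0106), Etfdh (0.0182) and Acaa2 (0.133) turned positive. Its edgeR counts at an unadjusted p under 0.05 were 5 lower (8.01% of all genes) and 1 higher (11.4%). Scaling by library totals gave the most calls, 19 members with 17 lower, adding Hadh, Decr1 and Acot13, when 27% of all genes passed. Requiring 10 counts in every library gave 4 higher members, with Acsl4 and Acot9 added, and 12 lower, with Hadhb and Pcca lost. Under that filter 27.5% of all genes tested passed. Scaling by adipocyte markers, chosen after seeing the data, gave 1 higher member, with Etfa at −0.0196, when 26% of all genes passed. Leaving out 1 library at a time gave 10 to 16 members called (10 without WT replicate 4), 8 to 15 lower and 1 to 3 higher, a median of −0.44 to −0.25, and 18 to 24 other genes. The share of all genes passing in these fits was 23.1 to 26.1%. Etfa turned negative without WT replicate 1 (−0.0525) or db/db replicate 2 (−0.143), over a range of −0.143 to 0.251, Acad12 positive without WT replicate 1, over a range of −0.369 to 0.00195, and Acsl5 positive without db/db replicate 3, over a range of −0.139 to 0.0463. The log2 ratio differences ran from 0.72 to 1.08 for Etfa over Etfb and from 2.55 to 2.79 for Acot2 over Acot1, where the smallest exact permutation p with 7 libraries is 0.0571. The causes of these changes were not tested. With the replicate number as a block, 17 members passed, 14 lower and 3 higher, Acsl4 being the addition, when 27.6% of all genes passed. The ratio differences under the block stayed at 0.91 for Etfa over Etfb and 2.69 for Acot2 over Acot1, where the smallest sign-flip p of 4 pairs is 0.125. Same-numbered libraries of the genotypes are different animals, and their deviations correlated at 0.037, 0.047, −0.078 and −0.014, so the numbers do not pair them. Members with few counts, Acad9, Cpt1a, Acot1 and Acot11 among them, are limited by depth.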

Other observations

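Summed over the genes of a step, the level in db/db lay under that in WT in every library for 6 of the 9 steps. The electron transfer flavoproteins stood at 2636 ± 351 CPM in WT and 1561 ± 297 CPM in db/db (SD, n = 4), and the acyl-CoA synthetases at 1043 ± 129 and 727 ± 48.6 CPM. The chain-length acyl-CoA dehydrogenases were at 4420.4 ± 316 CPM in WT and 3437 ± 549 CPM in db/db. In these sums the genes with the highest counts dominate. The acyl-CoA thioesterases differed from the other steps in the sign of the difference, with 1133 ± 154 CPM in WT and 1219 ± 199.6 CPM in db/db, and the groups overlapped. Genes of the mitochondrial DNA took 31.9 to 33.98% of the counts of the WT libraries, 30.7% in db/db replicate 1 and 36.8 to 37.6% in the other db/db libraries. None of these sums was tested.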
